A study of Mus musculus with 10 samples.

Results

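The IL-6, STAT3 and IL-23 axis was followed in 2 mouse prostate systems as 10 genes taken by symbol from the 48897 rows in each table. These were Il6, Il11, Lif, Osm, Il23a, Il6ra, Osmr, Il6st, Stat3 and Socs3. The list was made with earlier results of these data known. All 10 symbols were found once in both tables. RNA-seq covered 10 libraries in 4 groups. In the prostate epithelium, 3 control libraries (A, B and C) came from mice with Arid1a left in place and 3 from mice labelled Arid1a PC-/-, all of strain C57BL/6 and 3 months old. PC stands for deletion by Probasin-Cre, a recombinase driven by a prostate epithelial promoter, and mice of both groups shared a further deletion made by it, so the controls were not wild type. Cells were sorted as positive for EpCAM, an epithelial surface protein, and negative for CD45, the leukocyte surface protein encoded by Ptprc. Myc-CaP, a prostate cancer cell line of FVB background, gave 2 libraries with an empty vector (EV) and 2 with Arid1a knockout (KO) by lentiviral guide RNA. Whether the knockout cells were a clone or a pool is not given in the sources used here. The labels name the cell line as the source of these 4 libraries, but repeat the description of the culture and of the mouse cell sort for all 10. Arid1a encodes a DNA-binding subunit of the SWI/SNF chromatin remodelling complex, and the comparison asked which genes differed with its deletion.

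Cytokines of the IL-6 family signal through the shared receptor chain gp130, encoded by Il6st. Each ligand also uses a partner chain, the IL-6 receptor (Il6ra) for IL-6 and the oncostatin M receptor (Osmr) for oncostatin M. Janus kinases bound to the receptor then phosphorylate STAT3, which enters the nucleus and switches on target genes that include its own brake, Socs3. IL-23 belongs to the related IL-12 family. It is a dimer of p19, encoded by Il23a, and p40, encoded by Il12b, and it acts through Il12rb1 and Il23r on lymphocytes that make IL-17. In tumours this axis is known for linking epithelial and myeloid cells. Oncostatin M is made mainly by macrophages, neutrophils and T cells, and IL-23 mainly by macrophages and dendritic cells.

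The deposited values were whole reads scaled by gene length and depth, and the reads behind them were recovered for every gene above 0. Recovered reads per library ran from 28767343 to 36264217 in the epithelium and from 18414319 to 20678371 in Myc-CaP. Levels are given as RPKM in the epithelium and as TPM in Myc-CaP, both per gene length. The tables were scaled separately, so no difference between the systems was tested. Arid1a was not lower in the epithelium libraries labelled Arid1a KO. It measured 27.8, 21.9 and 26.5 RPKM in controls A, B and C, and 31.1, 28.8 and 30.8 RPKM in those labelled Arid1a KO, a log2 fold change of 0.25 ± 0.09 (SE) at limma adjusted p = 0.054. In Myc-CaP it was lower after knockout, at 60.5 and 61.0 against 39.5 and 40.3 TPM, with a log2 fold change of -0.59 ± 0.06 (SE) at limma adjusted p = 0.0102. In the epithelium a direction is therefore one between labels. The values give a single level per gene, so loss of part of the Arid1a transcript could not be seen. Nothing in the labels says which libraries shared a mouse or a culture, so p-values measure the spread between these libraries.

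Markers checked the labelled cells. In the epithelium Epcam stood at 304 ± 40.9 RPKM in the controls and 201 ± 21.5 RPKM in the libraries labelled Arid1a KO (SD, n = 3 each), while Ptprc, the gene of the surface protein sorted against, stood at 28.6 ± 2.30 and 57.3 ± 0.983 RPKM. In Myc-CaP Ptprc had at most 2 reads in any library and Epcam at most 2. The epithelial keratin Krt8 was at 1.07 and 0.79 TPM with the empty vector and at 40.3 and 38.8 TPM after knockout, so epithelial markers were near 0 in the 2 EV libraries. Myc-CaP EV library 2 and KO library 2 also carried 888 and 336 reads of the fibroblast collagen Col1a1, against 11 and 17 in EV library 1 and KO library 1.

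The 250 bases before the RefSeq start are shown for 4 of the members with a promoter entry, chosen for results that follow or for known letters of the pathway. The letters come from RefSeq on GRCm38.p6, which held a promoter entry for 8 of the 10 members. It held none for Osm and Il23a, which had the largest epithelium log2 fold changes of the 10, so their windows are not shown. Capitals mark matches to 3 motifs searched on both strands. These were the STAT motif TTCNNNGAA, the AP-1 motif TGANTCA and the NF-kB motif, which occur in the same window of 7.02%, 6.75% and 7.25% of 32851 promoters.
Socs3, chr11:117969367-117969616, minus strand: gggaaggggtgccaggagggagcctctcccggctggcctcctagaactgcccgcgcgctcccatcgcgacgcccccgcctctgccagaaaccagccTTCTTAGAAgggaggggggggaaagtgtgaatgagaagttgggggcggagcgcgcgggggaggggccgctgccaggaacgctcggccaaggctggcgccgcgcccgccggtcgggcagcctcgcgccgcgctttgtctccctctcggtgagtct
Il6, chr5:30012864-30013113, plus strand: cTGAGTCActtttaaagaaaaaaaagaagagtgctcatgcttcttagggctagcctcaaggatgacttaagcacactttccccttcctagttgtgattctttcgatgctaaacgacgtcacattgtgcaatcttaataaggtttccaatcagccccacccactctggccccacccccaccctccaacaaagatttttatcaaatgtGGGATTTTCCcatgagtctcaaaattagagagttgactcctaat
Lif, chr11:4257318-4257567, plus strand: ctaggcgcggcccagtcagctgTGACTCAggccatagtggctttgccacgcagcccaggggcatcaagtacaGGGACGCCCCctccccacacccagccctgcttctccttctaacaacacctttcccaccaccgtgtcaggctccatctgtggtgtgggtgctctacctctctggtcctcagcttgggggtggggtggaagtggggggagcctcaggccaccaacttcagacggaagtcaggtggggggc
Il6ra, chr3:89913197-89913446, minus strand: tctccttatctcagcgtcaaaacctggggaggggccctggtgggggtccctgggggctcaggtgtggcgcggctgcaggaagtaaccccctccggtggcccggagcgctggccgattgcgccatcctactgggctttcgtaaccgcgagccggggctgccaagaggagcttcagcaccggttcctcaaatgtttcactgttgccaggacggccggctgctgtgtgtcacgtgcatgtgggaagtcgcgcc

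In Socs3 the capitals mark a STAT match whose first base lies 154 bases before the RefSeq start. The Socs3 window lies inside the GENCODE span of the gene (117966079 to 117970047), so the annotations place its start differently. The Osmr window also lies inside the GENCODE span of its gene. In Il6 they mark an AP-1 match 249 bases and an NF-kB match 44 bases before the start, and in Lif an AP-1 match 228 bases and an NF-kB match 178 bases before it. The Il6ra window held none of the 3, nor did those of Il6st, Osmr and Stat3. Il11 had 2 promoter entries, and the one with an AP-1 match lies inside the GENCODE span of the gene. No match overlapped another. A match describes letters in the window and not binding.

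In the epithelium 8 of the 10 genes passed an adjusted p-value of 0.05, of which 7 were higher with the KO label and 1 was lower. Differences of this kind were common in this comparison. Of all 16275 genes tested 57.1% passed, 27.5% as higher and 29.6% as lower. Rescaling the libraries to the same sum shifted the median over all genes, on the log2 scale, from -0.03 to 0.11, while the calls that were higher went from 4471 of 9294 to 6046 of 9323. The median log2 fold change of the 10 genes was 0.45, beside the -0.03 over all genes. The control libraries and those labelled Arid1a KO did not overlap for 8 of the 10 genes, and for 66.7% of all genes tested. In Myc-CaP 6 of the 10 genes were expressed enough to be tested, and 0 passed in the limma test, while 6.43% of all 13974 genes tested did, 4.54% as higher and 1.89% as lower. Of the 6 genes, 1 had an unadjusted p-value under 0.05, beside 3085 of all 13974 genes tested. Groups did not overlap for 3 of the 6, beside 51.5% of all genes tested. A second test, limma-voom on the recovered reads, called 8 of the 10 genes in the epithelium, where it called 55.4% of all genes. In Myc-CaP it called 1, Il6ra, where it called 12.2% of all genes.

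**Figure D1:**
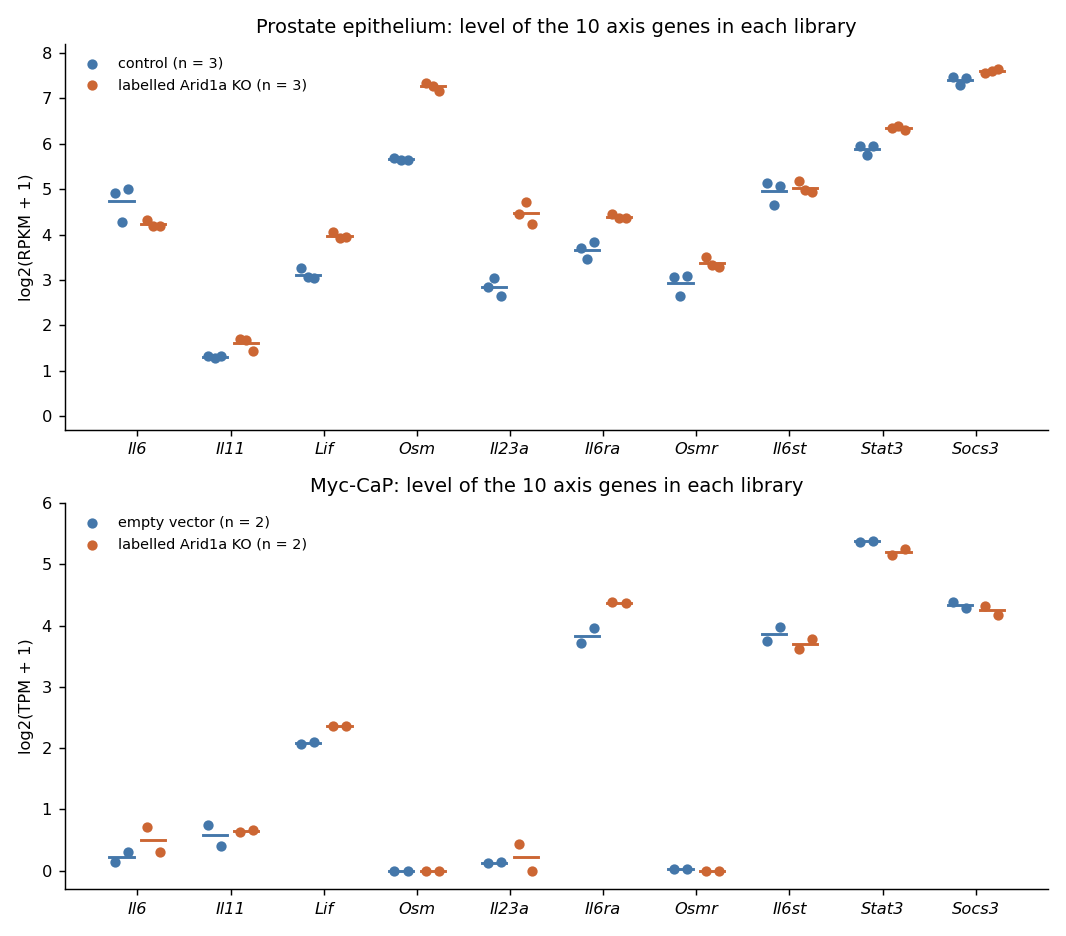
Level of each of the 10 genes in every library, as log2(RPKM + 1) in the prostate epithelium (top) and log2(TPM + 1) in Myc-CaP (bottom); points are libraries and short lines group means. Osm and Il23a show the widest gaps in the epithelium, while in Myc-CaP the points of Il6, Osm, Il23a and Osmr lie at or near 0.

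Of the ligands, oncostatin M had the smallest adjusted p-value of the 10 genes. Osm (chromosome 11, 4236420 to 4241026 on GRCm38) measured 50.4, 48.9 and 49.1 RPKM in controls A, B and C, and 162, 154 and 143 RPKM in those labelled Arid1a KO. The libraries of each group lay close together and the groups did not overlap. The mean rose 3.09-fold, from 3052.7 to 8677.7 reads per library, a log2 fold change of 1.61 ± 0.07 (SE) at limma adjusted p = 6.78e-06. Osm passed in all 14 alternative fits, with log2 fold changes from 1.56 to 1.78. In the controls it was the third of the 10 genes by level, below Stat3, and in the libraries labelled Arid1a KO the second, above Stat3, in both cases without overlap between the neighbours. Myc-CaP gave 0 reads of Osm in each of the 4 libraries, which at 3 reads allows a level of up to 0.207 TPM, for counting error only.

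Il23a (chromosome 10, 128296139 to 128298752), the subunit that makes IL-23 distinct from IL-12, measured 6.14, 7.23 and 5.22 RPKM in the control libraries and 20.9, 25.2 and 17.8 RPKM in those labelled Arid1a KO. The lowest of the latter was above the highest of the former. The mean rose 3.43-fold, and the log2 fold change was 1.63 ± 0.14 (SE) at limma adjusted p = 0.000107. It passed in all 14 alternatives, from 1.5 to 1.79. The gene of its partner p40 did not pass. Il12b measured 5.31, 4.37 and 5.06 RPKM in the controls and 4.88, 3.64 and 3.99 RPKM in the libraries labelled Arid1a KO, overlapping groups with a log2 fold change of -0.20 ± 0.11 (SE) at limma adjusted p = 0.16. Ebi3, the beta chain of IL-27 and IL-35, was at 9.34 ± 0.613 and 10.2 ± 1.09 RPKM (SD, n = 3 each) and did not pass, at limma adjusted p of 0.32. Il12a, the p35 chain of IL-12, had 3 to 8 reads in the controls and 13 to 17 in the libraries labelled Arid1a KO, under the level tested. In Myc-CaP Il23a had 1 and 1 reads with the empty vector and 4 and 0 after knockout, so a difference was not detectable at this depth.

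Leukaemia inhibitory factor, a ligand that pairs Lifr with gp130, was also higher. Lif (chromosome 11, 4257557 to 4272514) measured 8.53, 7.39 and 7.21 RPKM in the controls and 15.6, 14.1 and 14.4 RPKM in the libraries labelled Arid1a KO, without overlap. This was a 1.91-fold difference in means and a log2 fold change of 0.85 ± 0.08 (SE) at limma adjusted p = 0.000142, and it passed in all 14 alternatives. In Myc-CaP Lif was at 3.19 and 3.31 TPM with the empty vector and 4.11 and 4.13 TPM after knockout, from 167 to 183 reads in the former. The Myc-CaP groups did not overlap, but the log2 fold change of 0.27 ± 0.12 (SE) did not pass, at limma adjusted p of 0.303.

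IL-6 itself went the other way in the epithelium, with a call that depended on the fit. Il6 (chromosome 5, 30013114 to 30019981) measured 29.0, 18.5 and 31.3 RPKM in controls A, B and C, and 19.1, 17.1 and 17.1 RPKM in those labelled Arid1a KO. Control library B lay below the highest library labelled Arid1a KO, so the groups overlapped. The log2 fold change was -0.51 ± 0.18 (SE) at limma adjusted p = 0.042. The call was lost in 7 of 14 alternatives, among them rescaling to the same sum and the removal of any library but control B, with adjusted p-values up to 0.171. In Myc-CaP Il6 had 1 and 2 reads with the empty vector and 6 and 2 after knockout, too few to test.

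Interleukin-11 was the lowest of the 10 genes in the epithelium. Il11 (chromosome 7, 4772373 to 4782859) measured 1.49, 1.42 and 1.51 RPKM in the controls, from 89 to 104 reads, and 2.23, 2.19 and 1.70 RPKM in the libraries labelled Arid1a KO, from 99 to 137 reads. The groups did not overlap, and the log2 fold change of 0.29 ± 0.10 (SE) passed at limma adjusted p of 0.0327. It did not pass in 8 of 13 alternatives, and with limma-voom on the reads it gave 0.47 with an adjusted p-value of 0.054. In Myc-CaP it had 5 to 12 reads in each library, with a log2 fold change of 0.07 ± 0.23 (SE) at limma adjusted p = 0.905. The Myc-CaP direction turned to -0.10 without EV library 2.

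**Figure D2:**
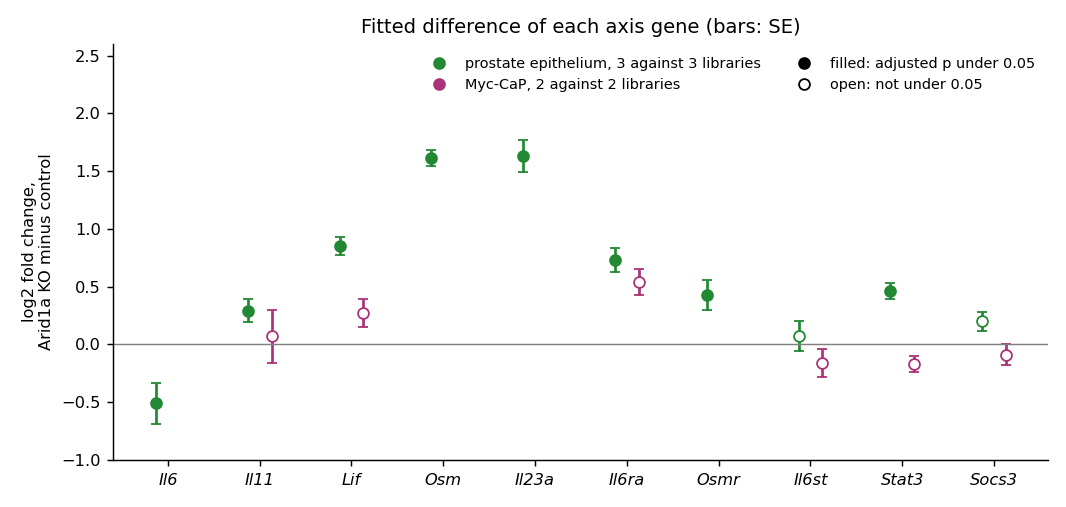
Fitted log2 fold change of each gene, Arid1a KO minus control, with its SE, on the log2(value + 1) scale; green is the epithelium and purple Myc-CaP, filled points have a limma adjusted p-value under 0.05, and genes too low to test have no point. In the epithelium Osm (1.61) and Il23a (1.63) stand highest and Il6 (-0.51) lowest, and the 6 Myc-CaP points are all open.

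The receptor chains were then compared. Il6ra (chromosome 3, 89864059 to 89913196) measured 12.1, 10.1 and 13.2 RPKM in the controls and 20.9, 19.7 and 19.6 RPKM in the libraries labelled Arid1a KO. The groups were well separated, with a 1.70-fold difference in means and a log2 fold change of 0.73 ± 0.10 (SE), at limma adjusted p = 0.000597. It passed in all 14 alternatives. In Myc-CaP Il6ra was at 12.2 and 14.5 TPM with the empty vector and 19.8 and 19.7 TPM after knockout, again without overlap. That log2 fold change of 0.54 ± 0.11 (SE) had a limma adjusted p of 0.0578 and missed the threshold, and with limma-voom on 360 to 553 reads it was 0.57 with an adjusted p-value of 0.0101. It passed in 4 of 12 alternatives.

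Osmr (chromosome 15, 6813577 to 6874969) measured 7.43, 5.29 and 7.53 RPKM in the controls and 10.4, 9.05 and 8.72 RPKM in the libraries labelled Arid1a KO, without overlap. The log2 fold change was 0.43 ± 0.13 (SE) at limma adjusted p = 0.0238, and it did not pass without Arid1a KO library A, without Arid1a KO library B or with no filter on low values. In Myc-CaP Osmr had 1 read in each EV library and 0 in each KO library. The shared chain gp130 did not pass. Il6st (chromosome 13, 112464070 to 112510086) measured 34.4, 24.3 and 32.6 RPKM in the controls and 35, 30.6 and 29.8 RPKM in the libraries labelled Arid1a KO, overlapping groups with a log2 fold change of 0.07 ± 0.13 (SE) at limma adjusted p = 0.654. Its sign turned to -0.08 without control library B. In Myc-CaP it was at 12.4 and 14.7 TPM with the empty vector and 11.3 and 12.8 TPM after knockout, and did not pass (limma adjusted p = 0.515).

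Ratios within a library, which no scaling of whole libraries changes, were used to compare receptor chains with their shared partner. In the epithelium Il6ra stood at 0.39 of the Il6st level in the controls and at 0.633 in the libraries labelled Arid1a KO, a difference in the log2 ratio of 0.70 between groups that did not overlap. Osmr stood at 0.222 and 0.295 of Il6st, a difference in the log2 ratio of 0.41, and Lifr at 0.149 and 0.162, a difference of 0.12. Each of these gave an exact two-sided permutation p-value of 0.1, the smallest that 3 libraries against 3 allow, so none could pass 0.05. In Myc-CaP the ratio of Il6ra to Il6st went from 0.982 to 1.65, a difference in the log2 ratio of 0.75, with an exact permutation p-value of 0.333, the smallest for 2 against 2.

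STAT3 itself was measured next. Stat3 (chromosome 11, 100885098 to 100939540) measured 61.1, 53.3 and 61.2 RPKM in the controls and 80.6, 83.2 and 78.5 RPKM in the libraries labelled Arid1a KO. The groups did not overlap, and the log2 fold change of 0.46 ± 0.07 (SE) had a limma adjusted p-value of 0.00142 and passed in all 14 alternatives. In Myc-CaP Stat3 was at 40.4 and 40.7 TPM with the empty vector and at 34.7 and 37.1 TPM after knockout. The log2 fold change there was -0.17 ± 0.07 (SE) and did not pass (limma adjusted p = 0.231).

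Socs3, which blocks the receptor-bound kinases and is induced by STAT3, was the highest of the 10 genes in both epithelium groups. Socs3 (chromosome 11, 117966079 to 117970047) measured 177, 155 and 175 RPKM in the controls and 187, 193 and 200 RPKM in the libraries labelled Arid1a KO. The groups did not overlap but lay close, and the log2 fold change of 0.20 ± 0.08 (SE) did not pass, at limma adjusted p of 0.0589. It passed in 3 of 14 alternatives, with limma-voom, rescaling and quantile normalization. Within each library Socs3 stood at 2.88 times Stat3 in the controls and 2.39 times in the libraries labelled Arid1a KO, a difference in the log2 ratio of -0.27 without overlap, again at the smallest exact permutation p-value of 0.1. In Myc-CaP Socs3 was at 19.8 and 18.6 TPM with the empty vector and 19.0 and 17.1 TPM after knockout, at limma adjusted p of 0.634. There its level was 0.474 and 0.502 of that of Stat3 (exact permutation p-value 0.667).

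By level the 10 genes kept a like order in the 2 epithelium groups, apart from Osm and Il23a, which moved up, and Il6, which moved down. Il23a was the ninth by mean level in the controls, at 6.20 ± 1.01 RPKM, where its range overlapped that of Osmr. In the libraries labelled Arid1a KO it was the fifth, at 21.3 ± 3.70 RPKM, where its range overlapped those of Il6ra and of Il6 (17.8 ± 1.15 RPKM; SD, n = 3 each). Relative to Stat3 within a library, Il23a stood at 0.105 in the controls and 0.261 in the libraries labelled Arid1a KO, a difference in the log2 ratio of 1.31 with an exact permutation p-value of 0.1.

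Leukocyte transcripts moved with the label in the same libraries, although the cells were sorted as negative for CD45. Of the leukocyte markers 6 of 7 were higher and 1, Cd52, lower. All 10 macrophage markers, 5 of 10 neutrophil markers (1 was lower), 2 of 7 dendritic cell markers, 5 of 8 T cell markers and 4 of 5 tested B cell markers were higher with the KO label. Over all genes tested in the epithelium 57.1% passed, 27.5% as higher and 29.6% as lower. Summed macrophage markers ran from 2730.3 to 3140.4 RPKM in the controls and from 4973.3 to 5713.9 RPKM in the libraries labelled Arid1a KO, a 1.80-fold difference in means. Summed dendritic cell markers ran from 52.6 to 66.1 and from 117 to 122 RPKM (1.96-fold). Itgax, an integrin that macrophages also carry, went from 23.5 ± 1.59 to 69.4 ± 2.64 RPKM and the chemokine receptor Ccr7 from 19.8 ± 2.6 to 34.7 ± 2.30 RPKM (SD, n = 3 each), and these made the rise of that sum. The other 5 dendritic cell markers did not pass, among them Flt3, Xcr1 and Clec9a, and the median log2 fold change of the list was -0.03. Summed neutrophil markers ran from 372 to 507 and from 432 to 693 RPKM (1.38-fold), where the groups overlapped. S100a8 and S100a9, which made most of that sum, did not pass, nor did Retnlg and Ngp. Csf3r (2.14-fold), Cxcr2 (2.49-fold), Il1r2 (1.69-fold), Ly6g (2.76-fold) and Mmp8 (5.18-fold) were higher, and Camp (0.419-fold) was lower. Summed B cell markers ran from 125 to 140 RPKM in the controls and from 430 to 752 RPKM in the libraries labelled Arid1a KO (4.56-fold). Nearly all of this sum was Ighm, the immunoglobulin mu heavy chain gene, at 123 ± 7.68 and 587 ± 158 RPKM. The B cell markers Cd79a and Ms4a1 were also higher but stood at or below 7.48 RPKM in both group means, and Cd79b, at 4.88 ± 0.906 and 4.14 ± 0.945 RPKM (SD, n = 3 each), did not pass. Summed T cell markers differed 1.5-fold without overlap. Summed epithelial markers differed 1.22-fold without overlap, through the basal keratins Krt5 (302 ± 41.8 and 762 ± 76.0 RPKM) and Krt14 (146 ± 30.2 and 799 ± 105 RPKM; SD, n = 3 each). Epcam and Krt18 were lower, the other 4 epithelial markers did not pass, and the median log2 fold change of the list was -0.15. Summed fibroblast markers ran from 1703.9 to 2492.6 and from 1436.8 to 2019.1 RPKM (0.845-fold), where the groups overlapped. Col1a1, Col1a2 and Col3a1, which made most of this sum, did not pass. Of the 8 fibroblast markers 3 were lower, Dcn, Lum and Pdgfra, and 1, Fbn1, was higher. Dcn went from 500 ± 69.2 to 147 ± 5.03 RPKM (SD, n = 3 each). Summed endothelial markers (1.25-fold) overlapped, and 1 of 6 was higher. Osm and Il23a differed 3.09-fold and 3.43-fold in the same libraries. In Myc-CaP, Csf3r, S100a8, C1qa, C1qc, Flt3 and Cd3e were at 0 reads in all 4 libraries, and summed leukocyte markers were at most 5.49 TPM. The part of these cell types in the levels of the axis genes was not tested, and in bulk libraries more cells of a type and more RNA per cell cannot be told apart.

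**Figure D3:**
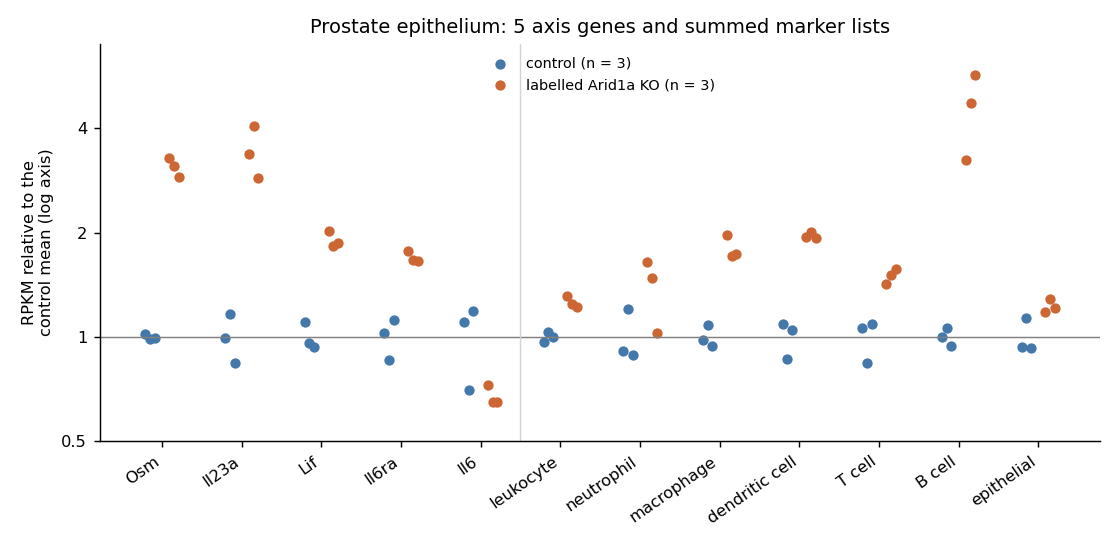
Prostate epithelium, each library's RPKM divided by the mean of the 3 control libraries (log axis), for 5 axis genes (left of the line) and for the summed markers of 7 cell types (right). Osm and Il23a of the libraries labelled Arid1a KO lie above the macrophage and dendritic cell sums, and Il6 of those libraries lies below 1. The B cell sum, nearly all of it Ighm, is the widest apart, and of the 7 sums shown the neutrophil sum alone overlaps its controls.

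Other ligands and receptors of the families were examined next. Of 9 other ligand genes 7 were tested in the epithelium, with 2 higher and 1 lower and a median log2 fold change of 0.00. The share of all genes tested that passed there was 57.1%. Clcf1, a ligand that acts through the CNTF receptor, was among the higher ones. It measured 6.88, 5.82 and 5.86 RPKM in the controls and 18.8, 19.9 and 18.2 RPKM with the KO label, with a log2 fold change of 1.48 ± 0.08 (SE) at limma adjusted p = 1.59e-05. The groups did not overlap. Ctf1, which encodes cardiotrophin-1, fell from 6.73 ± 0.688 to 3.81 ± 0.856 RPKM (SD, n = 3 each).

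Cntfr, the binding chain of the CNTF receptor, fell instead. It measured 1.88, 1.81 and 1.82 RPKM in the controls and 0.302, 0.424 and 0.545 RPKM in the libraries labelled Arid1a KO, from 472 to 557 and 78 to 133 reads. The means differed 0.231-fold. Its log2 fold change was -1.0 ± 0.09 (SE) at limma adjusted p = 0.000143, which understates that fall because 1 was added to these low values. Il11ra1, the receptor chain of IL-11, fell as well, from 30.1, 35.6 and 32.6 RPKM to 14.9, 15.9 and 12.5 RPKM, with a log2 fold change of -1.13 ± 0.10 (SE) at limma adjusted p = 0.00011. Of 8 other receptor genes 6 were tested, with 1 higher and 2 lower and a median log2 fold change of 0.11. Among all genes tested 57.1% passed. Lifr, at 4.52 ± 0.749 and 5.17 ± 0.502 RPKM, and Il12rb1, at 0.711 ± 0.0975 and 0.880 ± 0.0779 RPKM (SD, n = 3 each), did not pass, at limma adjusted p of 0.261 and 0.233. Il23r, the chain that binds IL-23, had 5 to 16 reads in each epithelium library and was not tested.

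In Myc-CaP 3 of the 9 other ligand genes were tested and 0 passed by limma or limma-voom, while 1 had an unadjusted limma p-value under 0.05. Over all genes tested there 6.43% passed in limma and 12.2% in limma-voom, and 3085 of 13974 had an unadjusted limma p-value under 0.05. Il31, Il27, Ebi3 and Il12a were at 0 reads. Of 8 receptor genes 3 were tested and 1 passed, while 6.43% of all genes tested passed in limma. Il12rb1, shared by the IL-12 and IL-23 receptors, was at 8.53 and 10.1 TPM with the empty vector and 18.0 and 19.3 TPM after knockout, and the log2 fold change was 0.93 ± 0.11 (SE) at limma adjusted p = 0.0167. Its partner Il23r had 0 reads in all 4 libraries, and Lifr at most 2.

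Most kinases and sister STATs were higher. Of 10 genes tested in the epithelium 8 were higher and 1 lower, with a median log2 fold change of 0.47. Over all genes tested 27.5% were higher and 29.6% lower. Jak2, one of the kinases that bind gp130, went from 8.46, 7.51 and 8.09 RPKM to 15.7, 19.3 and 16.2 RPKM. Its log2 fold change was 1.0 ± 0.09 (SE) at limma adjusted p = 0.000121. Jak1, Jak3 and Tyk2 had log2 fold changes of 0.49, 0.98 and 0.46 and also passed, at limma adjusted p of 0.00397, 2.79e-05 and 0.00311. Stat4, a transducer of IL-12 signals in lymphocytes, rose by a log2 fold change of 0.85. Stat5a fell from 18.8 ± 0.828 to 9.57 ± 1.45 RPKM (SD, n = 3 each), for a log2 difference of -0.92 at limma adjusted p of 0.000314.

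In Myc-CaP 8 of these 10 genes were tested, and 4 rose and 0 fell, with a median log2 fold change of 0.57. Over all genes tested there 6.43% passed. Jak2 was at 16.2 and 18.8 TPM with the empty vector and 31.7 and 34.2 TPM after knockout, and the log2 fold change was 0.88 ± 0.10 (SE) at limma adjusted p = 0.0143. Stat2 (0.98) and Stat5a (0.80) also rose, at limma adjusted p of 0.0144 and 0.02. Stat5a thus had opposite signs in the 2 systems, where it went from 10.6 and 9.07 to 17.9 and 17.9 TPM in Myc-CaP. Jak1 and Tyk2, at log2 fold changes of 0.18 and 0.21, did not pass, at limma adjusted p of 0.212 and 0.231. Each of the calls of Jak2, Stat2 and Stat5a was lost without any 1 of the 4 libraries, with limma adjusted p-values from 0.0691 to 0.152, in fits where the arm left with 1 library was assumed to vary like the other.

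Brakes other than Socs3 were either higher or did not pass in the epithelium. Of 13 tested 6 were higher and 0 lower, and the median log2 fold change was 0.16. Over all genes tested 57.1% passed, 27.5% as higher and 29.6% as lower. Socs4, Socs2 and Socs6, which help to target receptors and kinases for degradation, rose by log2 fold changes of 0.92, 0.75 and 0.70. Ptpn6, the phosphatase SHP-1 of blood cells, rose from 44.8 ± 0.856 to 70.2 ± 2.27 RPKM, with a log2 fold change of 0.64. Ptpn11, the phosphatase SHP-2, was at 24.6 ± 1.6 and 27.5 ± 1.54 RPKM (SD, n = 3 each) and did not pass (limma adjusted p = 0.106). In Myc-CaP 2 of 13 passed, both higher, with a median log2 fold change of 0.03, beside 6.43% of all genes tested. One was Ptpn11, at 228 ± 0.426 and 279 ± 1.14 TPM (SD, n = 2 each), for a log2 difference of 0.29 at limma adjusted p of 0.0379.

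Genes known as STAT3 targets moved in both directions. Of 30 listed, 26 were tested in the epithelium, with 11 higher, 7 lower and 8 that did not pass, and a median log2 fold change of 0.09. For comparison, 57.1% of all genes tested passed, 27.5% as higher and 29.6% as lower. Hif1a, the hypoxia-inducible factor, went from 25.1, 21.1 and 22.7 RPKM to 74.8, 74.4 and 67.2 RPKM, with a log2 fold change of 1.61 ± 0.08 (SE) at limma adjusted p = 1.36e-05. Il4ra, a receptor chain of IL-4 and IL-13, rose 2.90-fold and the acute-phase protein gene Saa3 2.42-fold, at limma adjusted p of 1.74e-05 and 0.000393. Other targets fell. Reg3b, an antibacterial lectin, went from 17, 30.9 and 15.1 RPKM to 1.30, 1.81 and 5.08 RPKM, with a log2 fold change of -2.63 ± 0.39 (SE) at limma adjusted p = 0.00105, and Cebpd, a transcription factor of the acute-phase response, fell from 68.5 ± 2.44 to 28.1 ± 1.79 RPKM (SD, n = 3 each).

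In Myc-CaP 24 of the 30 target genes were tested, with 3 higher and 2 lower and a median log2 fold change of 0.12. Over all genes tested 6.43% passed, 4.54% as higher and 1.89% as lower. Lcn2, a siderophore-binding acute-phase protein, was at 99.4 and 101 TPM with the empty vector and 33.0 and 32.8 TPM after knockout, and the log2 fold change was -1.58 ± 0.06 (SE) at limma adjusted p = 0.00135. Lrg1, a secreted glycoprotein of the acute phase, fell from 8.17 and 6.71 to 3.31 and 2.53 TPM, and Hp, which encodes haptoglobin, rose from 2.03 and 2.12 to 7.74 and 7.92 TPM, at limma adjusted p of 0.0294 and 0.00602. These rest on 26 to 97 reads of Lrg1 and 22 to 86 of Hp. The same genes passed in the epithelium in the same directions, with log2 fold changes of -0.98 for Lcn2, -0.71 for Lrg1 and 0.45 for Hp and limma adjusted p-values of 0.000292, 0.00158 and 0.0216.

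**Figure D4:**
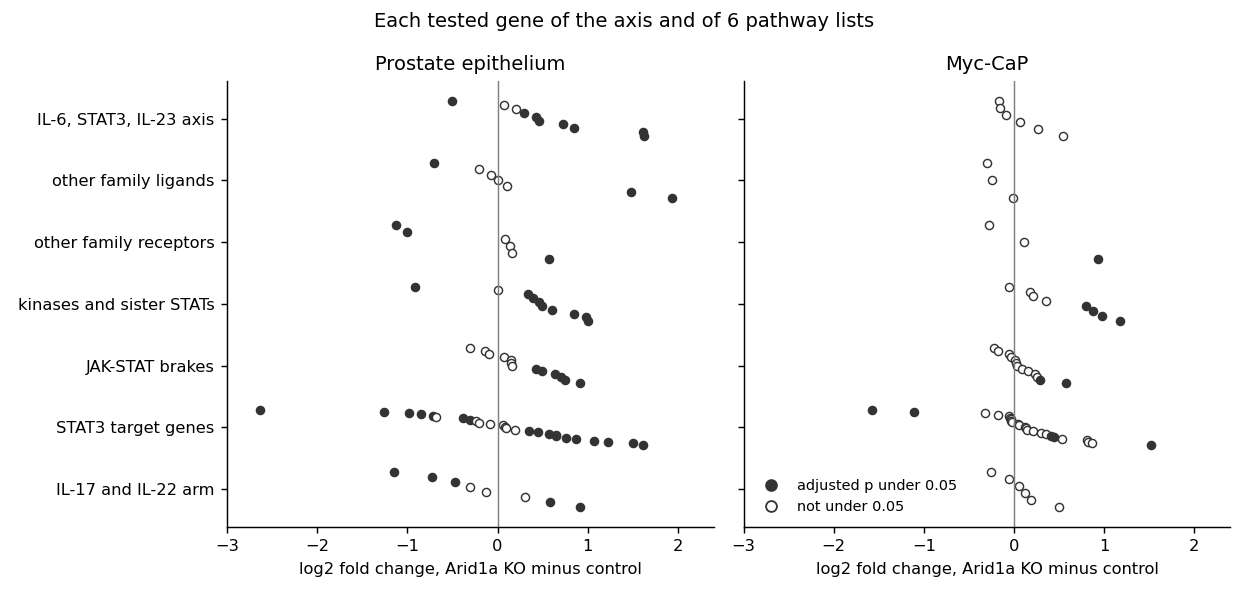
Log2 fold change of each tested gene, Arid1a KO minus control, in the epithelium (left) and Myc-CaP (right), one row for the 10 axis genes and one for each of 6 pathway lists; filled points have a limma adjusted p-value under 0.05, and height within a row only separates points. In the epithelium the kinases lie mostly right of 0 and the STAT3 target genes on both sides, from -2.63 to 1.61.

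The IL-17 and IL-22 arm, which IL-23 is known to feed, was mixed and thinly covered. Of 14 genes 8 were tested in the epithelium, with 2 higher and 3 lower and a median log2 fold change of -0.22. The share over all genes tested was 57.1%, with 27.5% higher and 29.6% lower. The chains of the IL-17 receptor differed in direction. Il17ra rose from 11.7 ± 0.530 to 22.8 ± 2.35 RPKM and Il17rc fell from 17.9 ± 3.00 to 12.6 ± 0.718 RPKM (SD, n = 3 each), at limma adjusted p of 0.000127 and 0.00942. Traf3ip2, the adaptor of the IL-17 receptor, fell by 0.73 on the log2 scale, at limma adjusted p of 0.000243. Il17a had 22 to 38 reads in the controls and 9 to 17 in the libraries labelled Arid1a KO, a non-passing log2 difference of -0.31 (limma adjusted p = 0.0783). In Myc-CaP 6 genes were tested and 0 passed in limma, with 1 at an unadjusted p-value under 0.05 and 1 called by limma-voom. Over all Myc-CaP genes tested 6.43% passed in limma, 3085 of 13974 had an unadjusted p-value under 0.05, and limma-voom called 12.2%. Il17a was at 0 reads.

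Over the 6 pathway lists together, 44 of 70 tested genes passed in the epithelium, 30 higher and 14 lower, and 12 of 57 in Myc-CaP, 10 higher and 2 lower. Over all genes tested 57.1% passed in the epithelium and 6.43% in Myc-CaP. The Myc-CaP count rests on few libraries. Without any 1 of the 4 libraries it was 1, which was Lcn2, and with no filter on low values it was 5. With limma-voom on the reads it was 18.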

How the data were processed

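Whole-transcriptome reads were aligned by the authors to GRCm38 (mm10) with strand-specific settings, counted per gene with HTSeq-count and deposited as RPKM for the 6 epithelium libraries and as TPM for the 4 Myc-CaP libraries. The methods name TopHat2 as the aligner, while the submitters' processing notes list HISAT2, HTSeq and DESeq2. The gene lengths behind RPKM and TPM are not given in the sources used here. Ratios of a gene's values between libraries were exact ratios of whole reads, and reads were recovered this way for 100% of the 33813 genes above 0 in the epithelium and the 25200 in Myc-CaP. A factor shared by all reads of a gene was resolved by comparing the 2 tables for 23838 genes and stays possible for genes in 1 table.

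Values were taken as log2(value + 1). Each table was fitted on its own, over genes whose mean reached 0.5, with limma 3.58.1 in R 4.3.3 (lmFit, eBayes with trend), with no covariate, and Benjamini-Hochberg adjustment covered every gene tested in the table. Calls were made below an adjusted p of 0.05. Fold changes understate the change of low genes. Floors of 3 reads and read numbers cover counting error only. Ratios of members were compared by exact two-sided permutation of the libraries with SciPy 1.17.1. Fits and read recovery were tested on simulated data. Coordinates came from GENCODE M21 on GRCm38.

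The 10 genes and the lists were chosen with earlier results of these data known. Beyond the 10 genes, 15 pathway genes were named whatever their values, and in each list and table up to 5 more that were called with at least a 1.5-fold change, none in a Myc-CaP list with under 3 calls. Marker genes were named after their values were seen. Alternatives were a pseudocount of 0.1, no filter, a minimum mean of 5, rescaling to the same sum, quantile normalization, no trend, a replicate block, the removal of each library and, added after seeing the data, limma-voom on genes with a mean of at least 10 reads. Some genes counted in the lists, and a deletion shared by both epithelium groups, are not reported here by name.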

Additional observations from a re-analysis of the deposited data

Results flagged for a closer look

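Some named genes moved in opposite directions in the epithelium and in Myc-CaP, with every Arid1a KO library beyond every control library in each system. The tables were scaled separately and the difference between the systems was not tested. With 2 libraries against 2 such separation is common, and it held for 51.5% of all genes tested in Myc-CaP. Stat3 had a log2 fold change of 0.46 in the epithelium and -0.17 in Myc-CaP, where it did not pass. Stat5a had -0.92 and 0.80, and passed in both. The other opposite pairs passed in the epithelium and not in Myc-CaP. Il11ra1 had -1.13 and 0.11, the latter from 6 to 10 reads per library. Il17rc had -0.47 and 0.50. Clcf1 had 1.48 and -0.30. Il4ra had 1.5 and -0.18. Cebpd had -1.26 and 0.81. Traf3ip2 had -0.73 and 0.19.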

How the results depend on the processing

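Of 822 values of single genes under other settings, 740 kept their direction and their side of the threshold, 60 lost the call, 20 gained it and 2 changed sign, Il6st without control library B (range -0.08 to 0.17 when each library was left out) and Il11 in Myc-CaP without EV library 2 (-0.10 to 0.09). The epithelium count of 8 called axis genes became 5 with no filter on low values. Over all genes 9500 of 33813 passed in that fit, against 9294 of 16275. The axis count ran from 5 to 7 when each library was left out, in fits where the count over all genes ran from 7768 of 16266 to 8819 of 16245. It was 5 without Arid1a KO library A and 5 without Arid1a KO library B. In Myc-CaP the count of 0 became 1 with a minimum mean of 5, quantile normalization, limma-voom or the replicate block, and this was Il6ra each time. In these fits 934 of 9697, 935 of 13974, 1602 of 13087 and 2771 of 13974 of all genes passed. The Myc-CaP count of 12 called pathway genes became 5 with no filter and 21 with the replicate block, and was 1 without any 1 library. The Arid1a difference in the epithelium passed as a rise with a minimum mean of 5 (0.25), rescaling (0.42), quantile normalization (0.27), the replicate block (0.25) and limma-voom (0.26), and ran from 0.15 to 0.32 when each library was left out, passing without control A. In Myc-CaP it ran from -0.61 to -0.58 without 1 library and did not pass in any of those 4 fits. The causes of these changes were not tested, beyond the smaller number of libraries in the last.

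Libraries share only a letter or number. Deviations of same-lettered epithelium libraries correlated across genes at 0.041, 0.009 and -0.057, and those of same-numbered Myc-CaP libraries at 0.195. With 2 libraries per group both Myc-CaP pairs give that same value by construction. With the replicate block the epithelium count of axis genes was 7, with Il11 lost, and 8823 of all genes were called. In Myc-CaP the block raised the count over all genes from 899 to 2771. In other Myc-CaP fits 358 genes passed with no filter, 451 without a trend, 1602 with limma-voom and 47 to 76 without 1 library. In the epithelium 5872 genes passed with a minimum mean of 5, against 9294. Depth limits Il6, Osm, Il23a and Osmr in Myc-CaP, which had at most 6 reads in any library.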

Other observations

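Further members of the lists passed in both systems in the same direction, and were picked after their values were seen. Vegfa, the vascular endothelial growth factor gene, rose from 50.1 ± 2.77 to 106 ± 5.78 RPKM in the epithelium (SD, n = 3 each) and from 33.9 ± 1.6 to 45.3 ± 0.559 TPM in Myc-CaP (SD, n = 2 each), with limma adjusted p-values of 3.67e-05 and 0.0364. Ptpn1, the phosphatase PTP1B that acts on Janus kinases, rose from 38.7 ± 0.985 to 54.7 ± 2.41 RPKM and from 58.0 ± 3.47 to 87.3 ± 4.34 TPM, with limma adjusted p-values of 0.000428 and 0.019. Stat2, a transducer of interferon signals, rose from 31.1 ± 1.20 to 40.9 ± 0.223 RPKM and from 12.3 ± 1.45 to 25.1 ± 1.74 TPM, with limma adjusted p-values of 0.000975 and 0.0144.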
